A study of Mus musculus with 9 samples.

Results

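The 39 protein-coding genes of the 4 mouse Hox clusters were followed in RNA sequencing of whole kidney. A gene was taken when its Ensembl identifier maps to a symbol made of Hoxa, Hoxb, Hoxc or Hoxd followed by digits only, which 39 of the 55359 genes in the table of raw counts met. Of these, 11 lie in the Hoxa cluster on chromosome 6, 10 in Hoxb on chromosome 11, 9 in Hoxc on chromosome 15 and 9 in Hoxd on chromosome 2. The study compared kidneys of mice on a normal calorie diet given vehicle (NCD vehicle, below NCD), of mice made diabetic with a high-fat diet and streptozotocin and given vehicle (HFD-STZ vehicle, below HFD-STZ), and of mice made diabetic in the same way and given dehydrozingerone (HFD-STZ DHZ, below DHZ), with 3 libraries in each group, which the sample titles give. A separate treatment field carries the compound's name on every library, controls too, and was not used. The diets began at 6 weeks of age and drew 11.32% (NCD) or 49% (HFD) of calories from fat. Streptozotocin, a toxin of the insulin-producing beta cells, was injected in 2 doses of 30 mg/kg, the first on diet day 60 and the other on day 63, and dehydrozingerone, a ginger compound related to curcumin, was given by mouth at 50 mg/kg for 2 weeks after hyperglycaemia had been checked on day 65. The labels give neither strain nor sex, nor whether each library came from its own animal, so the p-values measure the spread between these libraries, which may be technical.

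Hox genes encode homeodomain transcription factors that set the identity of body regions in the embryo. The mammalian clusters arose by duplication of an ancestral cluster, so that genes at the same place in different clusters are paralogues with the same number. Genes with low numbers lie at the 3′ end of a cluster, are switched on early and anteriorly and respond to retinoic acid, and genes with high numbers lie at the 5′ end and mark posterior and distal structures. Hox proteins bind DNA with TALE homeodomain cofactors (the Pbx, Meis and Pknox families). Polycomb proteins keep the clusters silent where they are off, and Trithorax proteins such as Kmt2a keep them active. In the kidney, genes of paralogue group 11 are needed for the metanephric mesenchyme to induce the ureteric bud, the promoter of Hoxb7 is used to drive transgenes in the ureteric bud and collecting duct, and the adult organ keeps a regional Hox code along the nephron and collecting system.

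The libraries held 15.1 to 47.5 M counts (M, mega), of which 39.2% to 60.4% fell on mitochondrially encoded genes and 2.13 to 15.2 M on nuclear protein-coding genes. The smallest number of nuclear protein-coding counts was in HFD-STZ replicate 2. Each library carries a different batch date in the labels, and the dates run on from NCD to HFD-STZ to DHZ, so the batches cannot be told apart from the groups. Y-linked genes were expressed in 4 of the 9 libraries, 1 in NCD, 2 in HFD-STZ and 1 in DHZ, so that each group held libraries with and without them. The 4 were NCD replicate 1, HFD-STZ replicates 2 and 3, and DHZ replicate 3. The nuclear RNA Malat1 took 5.99% to 14.7% of the counts outside mitochondrial genes and unprocessed pseudogenes in NCD, 11.9% to 23.7% in HFD-STZ and 3.49% to 5.79% in DHZ, so that the DHZ libraries lay below all others. Summed markers of the proximal tubule (10 of 10 genes detected) stood at 2079 to 5421 CPM and those of the thick ascending limb (8 of 8) at 996 to 2863 CPM over the 9 libraries, so that tubule markers of kidney were present. CPM are counts per M counts of library size, after TMM scaling (trimmed mean of M values).

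The middle of each cluster was expressed in adult kidney and the genes at its far 5′ end were not. A filter on low counts kept 29 of the 39 genes, namely 9 of 11 in Hoxa, 8 of 10 in Hoxb, 6 of 9 in Hoxc and 6 of 9 in Hoxd. Every tested gene belonged to paralogue groups 2 to 11. For comparison between genes, levels were divided by the length of the gene's exons. Per kb of exon, the highest mean level over the 9 libraries was that of Hoxb4, a factor known for expanding blood stem cells, at 25 CPM per kb. Hoxa7 followed at 14.7. The median length of its coding transcripts is 0.807 kb against 2.876 kb of exon. By that median it came first at 52.5 and Hoxb4 next. Another annotated coding transcript of Hoxa7 is 2009 bases long, so the order of these 2 genes depends on the transcript taken. Hoxa5, needed for lung and diaphragm development, stood at 13 CPM per kb by either length. Next came Hoxb7 at 8.82, Hoxc8 at 8.54, Hoxd8 at 8.29, Hoxb6 at 7.72 and Hoxc9 at 7.67 CPM per kb, which lie too close together for this order to mean much beside the spread of the libraries. At the low end of the tested genes were Hoxa11 at 0.253 and Hoxd11 at 0.127 CPM per kb, both of the paralogue group that induces the embryonic kidney. No cluster had a gene of group 12 or 13 above the filter.

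**Figure D1:**
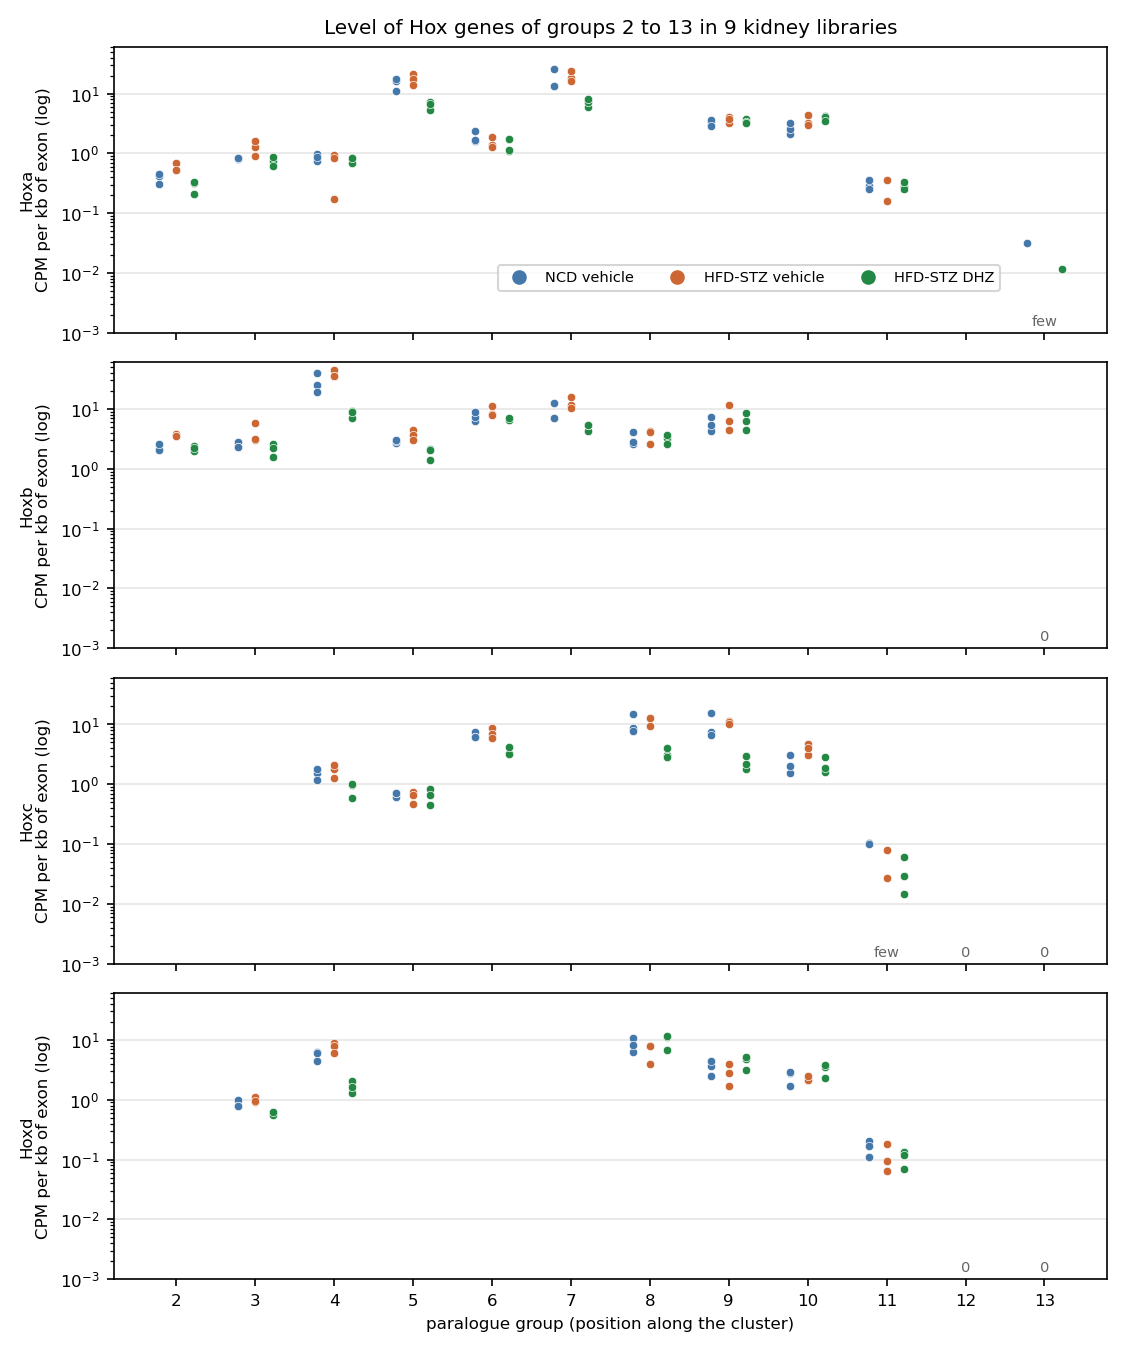
Level of the Hox genes of groups 2 to 13 in each library, in CPM per kb of exon on a log scale, against its paralogue group, with 1 panel for each cluster and 1 point for each library, coloured by group. Libraries without a count cannot be drawn on this axis, 0 marks genes without a count in any library, and few marks genes under the filter on low counts. Levels above 10 CPM per kb occur in groups 4 to 9, and the DHZ points lie below the others for Hoxb4, Hoxd4, Hoxc8 and Hoxc9.

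The remaining 10 genes had too few counts for a test. Hoxb13, Hoxc12, Hoxc13, Hoxd12 and Hoxd13, which mark the caudal end of the trunk, the digits, hair and the urogenital outlet in the embryo, had 0 counts in all 9 libraries. A count of 0 allows up to 3 counts in a library, which is 0.0462 to 0.404 CPM depending on its depth, counting error only. Hoxc11 had 4, 5 and 8 counts in NCD, 1, 0 and 4 in HFD-STZ and 1, 8 and 2 in DHZ. Hoxa13 reached at most 3 counts, Hoxd1 at most 2 and Hoxb1 at most 1 in any library. These counts are too low to place the groups in an order.

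Cluster sums were formed from levels per kb of exon, and which of Hoxa and Hoxb was higher depended on the length used. The levels per kb of all members of a cluster, summed in each library, came to 60.9 ± 10.7 CPM per kb for Hoxb in NCD (mean ± SD, n = 3), against 42.8 ± 8.81 for Hoxa, 31.5 ± 10.3 for Hoxc and 21.1 ± 3.06 for Hoxd. In HFD-STZ the sums were 82.7 ± 10.8 for Hoxb, 48.5 ± 2.63 for Hoxa, 36.3 ± 4.19 for Hoxc and 20.4 ± 3.29 for Hoxd. In DHZ they were 35.9 ± 2.36 for Hoxb, 24.4 ± 1.46 for Hoxa, 12.8 ± 2.48 for Hoxc and 19.8 ± 4.60 for Hoxd. Hoxb lay above Hoxa in all 9 libraries with this length. With the median length of each gene's coding transcripts, an alternative added after seeing the data, Hoxa lay above Hoxb in 8 of the 9. For Hoxa7 that median is the 0.807 kb given above. Per kb of exon, the DHZ libraries lay below all 6 others in Hoxa, Hoxb and Hoxc, while in Hoxd the 3 groups overlapped. Shares of the 4-cluster sum do not depend on the scaling of a library. The share of Hoxd was 9.64%, 16.6% and 15.5% in NCD, 11.1%, 9.19% and 12.3% in HFD-STZ and 23.9%, 23.8% and 16.2% in DHZ, so that DHZ lay above HFD-STZ in every library and overlapped NCD. The share of Hoxc was 17.8% to 23.2% in NCD, 18.1% to 21.3% in HFD-STZ and 11.5% to 17.3% in DHZ, without overlap between DHZ and the others. With coding transcript lengths the Hoxc shares of DHZ (10.03% to 14.6%) and of HFD-STZ (14.6% to 18.5%) met, at replicate 3 of each. These sums are given as a description and were not tested. With counts per M of the total count in place of TMM scaling, the log2 ratio of the mean sums of DHZ to HFD-STZ moved from -0.99 to -0.26 for Hoxa, from -1.21 to -0.49 for Hoxb, from -1.50 to -0.75 for Hoxc and from -0.04 to 0.65 for Hoxd. Per M counts of nuclear protein-coding genes it was -0.86 for Hoxa, -1.08 for Hoxb, -1.36 for Hoxc and 0.07 for Hoxd.

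**Figure D2:**
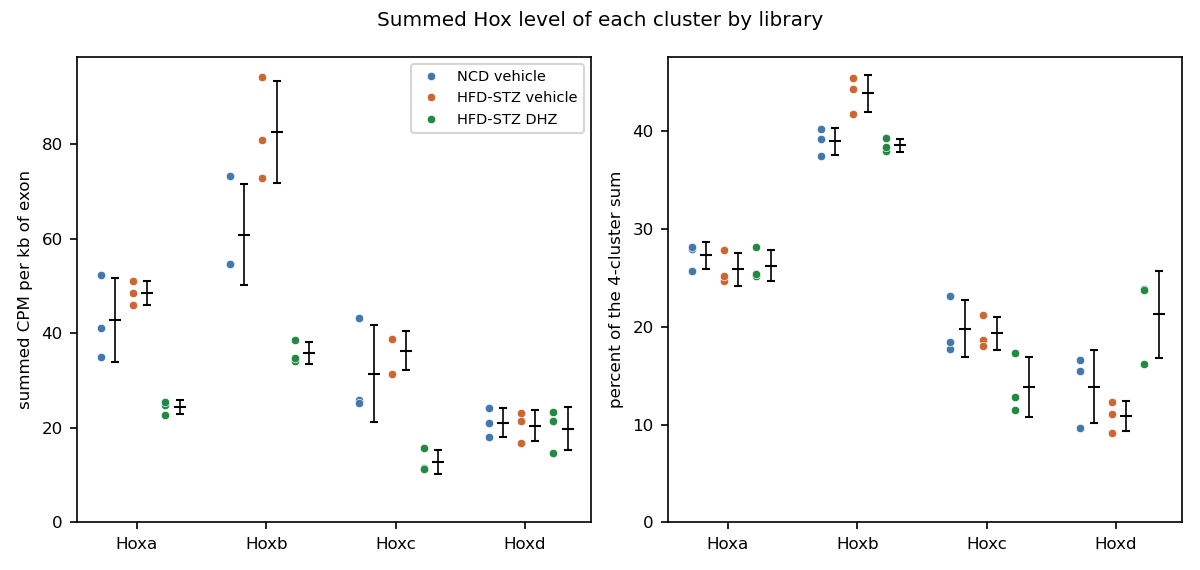
Summed level of each Hox cluster in each library (left, CPM per kb of exon) and its share of the 4-cluster sum (right, percent), by group. Points are libraries, and the bars beside them are mean ± SD of 3 libraries. On the TMM scale the DHZ sums of Hoxa, Hoxb and Hoxc lie under those of the other groups and those of Hoxd overlap them. Per M of total counts the log2 ratio of DHZ to HFD-STZ is 0.65 for Hoxd and stays below 0 for the other clusters. Per M counts of nuclear protein-coding genes it is 0.07 for Hoxd and also below 0 for the other clusters.

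No Hox gene passed the test in the diabetic model. In HFD-STZ against NCD, 0 of the 29 tested genes passed an adjusted p of 0.05 with edgeR. DESeq2 also called 0, beside 119 of all genes. Across all 17179 genes tested with edgeR, 0.0524% passed. At an unadjusted p below 0.05 there were 4 Hox genes, beside 7.43% of all genes. The estimates leaned upward, 21 of 29 above 0 with a median log2 fold change of 0.18 beside -0.003 over all genes, but with library sizes alone as the scaling the Hox median was -0.43 and that of all genes -0.74, which leaves the Hox genes 0.31 above it. In 5 genes all HFD-STZ libraries lay above all NCD libraries, Hoxa2, Hoxa3, Hoxb2, Hoxb3 and Hoxb5, against 4.83% of all genes. The lowest p was that of Hoxb2, a hindbrain patterning gene, with 7.48, 7.10 and 8.89 CPM in NCD, 13.1, 12.3 and 12.4 in HFD-STZ and 6.99, 8.23 and 7.70 in DHZ, and a log2 fold change of 0.69 (standard error, SE, 0.19 and adjusted p = 0.35) in the model. Hoxc10, a lumbar gene, had the largest estimate at 0.83 (SE 0.31 and adjusted p = 0.59).

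After dehydrozingerone, 14 of the 29 tested Hox genes fell against HFD-STZ on the TMM scale and 0 rose, whereas with library sizes alone 0 were called and Hoxa3, Hoxb2 and Hoxb3 took the opposite sign. Under library sizes alone the median of all genes was 0.81 and that of the Hox genes 0.03, which is -0.77 relative to it. In that fit 6 Hox genes had an unadjusted p below 0.05, and 888 of all genes were called, beside 3796 on the TMM scale. These 3796 are 22.1% of all genes, 12% lower and 10% higher. Of the protein-coding genes 8.93% were called lower on the TMM scale. The genes that fell were Hoxa3, Hoxa5 and Hoxa7 (3 of 9 tested in Hoxa), Hoxb2, Hoxb3, Hoxb4, Hoxb5 and Hoxb7 (5 of 8 in Hoxb), Hoxc4, Hoxc6, Hoxc8 and Hoxc9 (4 of 6 in Hoxc), and Hoxd3 and Hoxd4 (2 of 6 in Hoxd). On the TMM scale the median log2 fold change of the 29 was -0.75 beside 0.04 over all genes. In 17 of the 29 every DHZ library lay below every HFD-STZ library, which 19.0% of all genes did. DESeq2 called 15. In bulk tissue, fewer cells of a type and less Hox RNA per cell cannot be told apart.

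The genes that fell sat in the 3′ and middle parts of the clusters. In paralogue groups 1 to 4, 7 of 9 tested genes fell, in groups 5 to 8 it was 6 of 11, and in groups 9 to 13 it was 1 of 9, Hoxc9. Median log2 fold changes were -0.91, -0.99 and -0.09 in the same order. Of the genes called in groups 1 to 4, only Hoxb4 and Hoxd4 kept their calls without DHZ replicate 1 and without DHZ replicate 2. Hoxa3, Hoxb2, Hoxb3, Hoxc4 and Hoxd3 lost theirs in both fits. No gene of groups 1, 12 and 13 was tested, and in the last band Hoxc10 came close to the threshold (adjusted p = 0.055). All 3 members of group 3 and both members of group 7 were called, and 3 of the 4 members of group 4. In group 3, Hoxa3, Hoxb3 and Hoxd3 kept the call in 1, 3 and 2 of 9 fits that left out a library. Hoxa4 and Hoxc5 were not called, although the genes that flank each of them on both sides in the list of paralogue groups were, with log2 fold changes of 0.15 and 0.04. On the 5′ side of Hoxd, Hoxd8, Hoxd9 and Hoxd10 had estimates of 0.57, 0.59 and 0.52, none of which passed (adjusted p = 0.2, 0.19 and 0.18). The difference between the bands of paralogue groups was not tested.

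**Figure D3:**
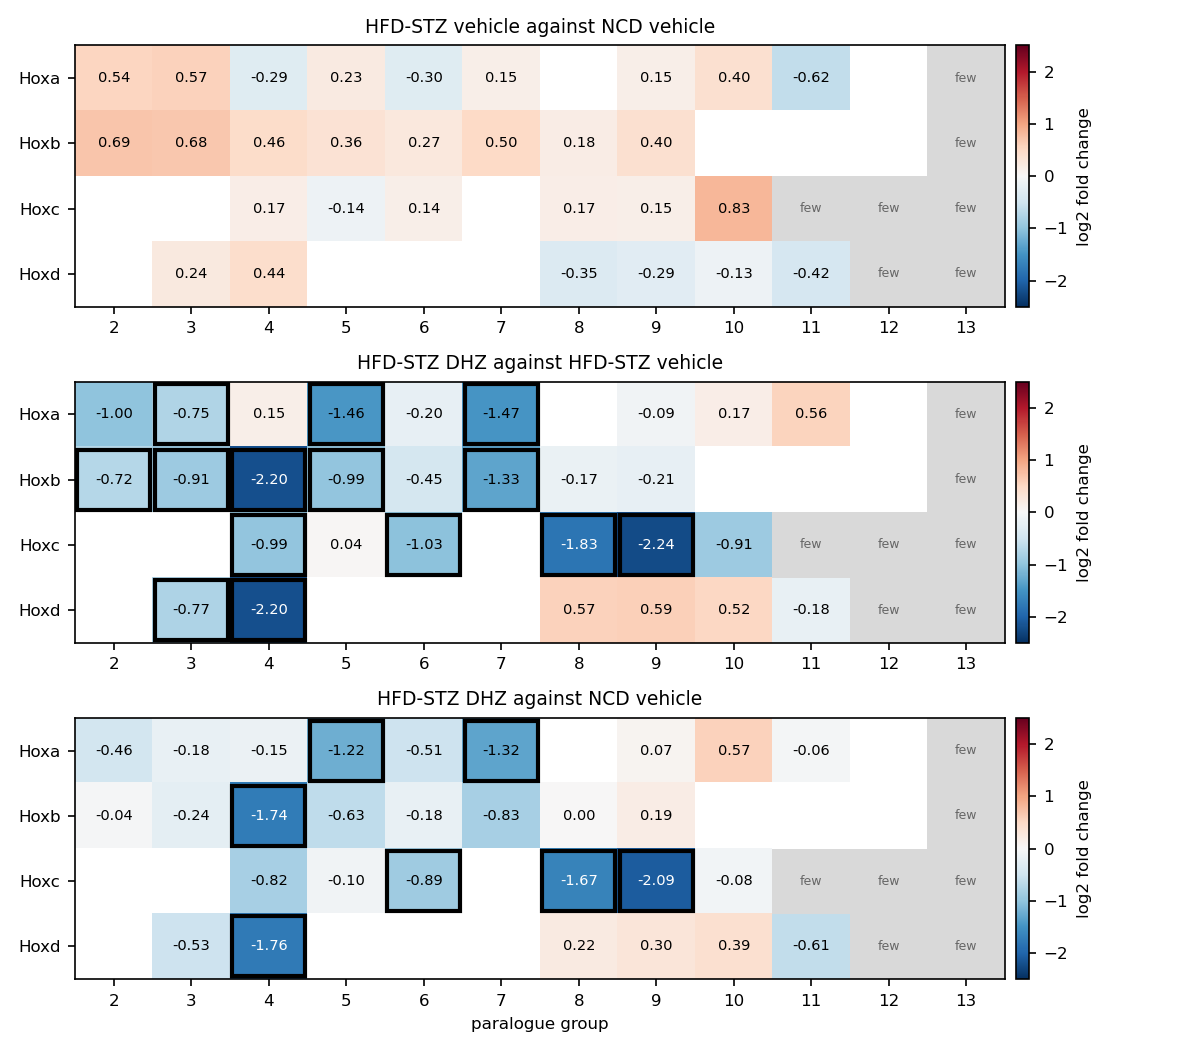
Log2 fold change of each tested Hox gene in the 3 comparisons, arranged by cluster (rows) and paralogue group (columns, 2 to 13), on the TMM scale. A black frame marks an adjusted p below 0.05, grey cells (few) had too few counts, and white cells hold no gene. Framed cells number 0, 14 and 7 from top to bottom and are all below 0, and in the middle panel they lie in groups 2 to 9. With library sizes alone no cell would be framed and Hoxa3, Hoxb2 and Hoxb3 would be slightly above 0 in the middle panel.

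Promoters are shown because retinoic acid is the classical input to the 3′ genes. Of the 39 genes, 22 had a promoter of 300 bases around the start of transcription in the RefSeq table for GRCm38.p6, among them 7 of the 14 that fell. The half-site of retinoic acid receptors, AGGTCA, was searched on both strands, where the opposite strand reads TGACCT. It was found in 5 of the 7 promoters of genes that fell (Hoxa5, Hoxb4, Hoxc4, Hoxd3 and Hoxd4, not Hoxa3 and Hoxa7), in 2 of 12 promoters of genes tested and not called (those of Hoxd8 and Hoxd10), and in 16.2% of the 32544 distinct promoters of the table. Of the 5 other motifs searched on both strands, TGATNNAT of Pbx-Hox pairs was in 0 of 7, 3 of 12 and 8.79% of all, TGACAG of Meis in 1 of 7, 1 of 12 and 19.1%, and GGGCGG in 1 of 7, 6 of 12 and 35.9%. CCAAT was in 4 of 7, 6 of 12 and 37.4%, and TATAAA in 1 of 7, 2 of 12 and 13.6%. A match of 6 letters is a description and does not show a bound site. Hoxa7 fell whichever library was left out, but its promoter holds no half-site and is not shown. These 3 promoters, which hold one, also belong to genes that fell whichever library was left out, and capitals mark the half-site.
Hoxa5, chr6:52204538-52204837, - strand: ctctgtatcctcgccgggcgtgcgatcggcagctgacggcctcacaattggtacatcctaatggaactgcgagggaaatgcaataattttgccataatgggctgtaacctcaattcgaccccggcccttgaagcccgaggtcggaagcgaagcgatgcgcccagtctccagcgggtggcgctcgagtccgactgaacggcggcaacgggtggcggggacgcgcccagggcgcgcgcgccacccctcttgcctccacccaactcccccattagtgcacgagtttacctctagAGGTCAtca
Hoxb4, chr11:96318017-96318316, + strand: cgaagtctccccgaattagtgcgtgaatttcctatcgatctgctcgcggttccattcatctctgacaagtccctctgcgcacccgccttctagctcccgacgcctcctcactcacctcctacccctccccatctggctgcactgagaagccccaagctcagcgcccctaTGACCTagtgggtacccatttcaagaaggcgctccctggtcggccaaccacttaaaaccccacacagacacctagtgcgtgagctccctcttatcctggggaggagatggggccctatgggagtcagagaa
Hoxd4, chr2:74721728-74722027, + strand: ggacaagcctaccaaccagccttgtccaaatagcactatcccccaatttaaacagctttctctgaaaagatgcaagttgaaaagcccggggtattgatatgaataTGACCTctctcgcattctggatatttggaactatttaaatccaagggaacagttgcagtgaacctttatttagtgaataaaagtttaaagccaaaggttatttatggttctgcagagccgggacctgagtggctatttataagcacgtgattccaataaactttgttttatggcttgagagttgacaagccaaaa

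The clusters also hold microRNA genes whose products pair with Hox transcripts. The mature sequences, from RefSeq for GRCm38.p6 with the seed (bases 2 to 8) in capitals, fall into 2 families of 2 with the same seed each, miR-10 from the Hoxb and Hoxd clusters and miR-196 from Hoxa, Hoxb and Hoxc.
mmu-miR-10a-5p: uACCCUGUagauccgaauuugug
mmu-miR-10b-5p: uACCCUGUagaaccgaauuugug
mmu-miR-196a-5p: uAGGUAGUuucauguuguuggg
mmu-miR-196b-5p: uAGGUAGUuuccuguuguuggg
The sites that match these seeds in full, ACTACCT for miR-196 and ACAGGGT for miR-10, were searched in the 3′ UTR of 1 annotated transcript of each gene. A miR-196 site was present in 4 of the 14 genes that fell (Hoxa5, Hoxa7, Hoxb7 and Hoxc8) and in 3 of the 15 tested and not called (Hoxa4, Hoxa9 and Hoxb6), beside 6.83% of all 13474 protein-coding genes tested. A miR-10 site was present in Hoxa3 and Hoxb3, in 0 of the 15 not called and in 14.3% of all. Hoxa7, with 4 miR-196 sites, and Hoxc8, with 2, hold the most, and capitals mark the match in each.
Hoxa7, 3′ UTR position 310: cagccaaaatACTACCTagcac
Hoxa7, 3′ UTR position 347: gcactcccaaACTACCTatggg
Hoxa7, 3′ UTR position 479: catgatcaatACTACCTactac
Hoxa7, 3′ UTR position 500: ctagccctaaACTACCTattgt
Hoxc8, 3′ UTR position 135: cacaactctaACTACCTgtcag
Hoxc8, 3′ UTR position 892: tctttaacatACTACCTaaagg
Mature microRNAs are not captured by this assay of polyadenylated RNA, so their levels were not measured.

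In the Hoxb cluster, Hoxb4 fell most, with 102, 63.6 and 49.5 CPM in NCD, 114, 90.4 and 93 in HFD-STZ and 18.1, 23.4 and 22.9 in DHZ. The log2 fold change was -2.20 (SE 0.28 and adjusted p = 0.0031), a 4.60-fold difference, and the DHZ libraries lay far below all others. Hoxb7, whose promoter marks the collecting duct, stood at 19.2, 11 and 11 CPM in NCD, 18, 24.4 and 15.8 in HFD-STZ and 6.61, 8.28 and 8.19 in DHZ. Its 3 DHZ libraries were the lowest of the 9, and its log2 fold change was -1.33 (SE 0.26 and adjusted p = 0.0074). Hoxb5, known for its part in the enteric nervous system, stood at 7.53, 8.18 and 8.35 CPM in NCD, 12.2, 10.2 and 8.58 in HFD-STZ and 5.90, 3.88 and 5.81 in DHZ, again without overlap. Its log2 fold change was -0.99 (SE 0.23 and adjusted p = 0.012). Hoxb3 stood at 12.1, 9.88 and 9.98 CPM in NCD, 13.1, 24.9 and 13.6 in HFD-STZ and 11.1, 6.64 and 9.44 in DHZ, where HFD-STZ replicate 2 was high and the DHZ and NCD libraries overlapped. Hoxb3 had a log2 fold change of -0.91 (SE 0.28 and adjusted p = 0.036), and its exons share 52.9% of their length with the antisense gene Hoxb3os, whose reads cannot be told from its own unless the counting used strand, which is not given. The call of Hoxb3 was kept in 3 of 9 fits that left out a library. Hoxb2, with the values given above, fell by 0.72 on the log2 scale (SE 0.18 and adjusted p = 0.019). Its HFD-STZ libraries were all high, its DHZ libraries overlapped those of NCD, and Hoxb3os overlaps 27.3% of its exon length.

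The other Hoxb genes were not called. Hoxb6, the third in the cluster by level, stood at 12.4, 14.2 and 17.6 CPM in NCD, 21.8, 16 and 15.3 in HFD-STZ and 12.8, 12.6 and 13.7 in DHZ, with a log2 fold change of -0.45 (SE 0.21 and adjusted p = 0.14). Its DHZ libraries lay below those of HFD-STZ and inside the range of NCD. Hoxb8 and Hoxb9, at the 5′ end of the expressed stretch, had log2 fold changes of -0.17 and -0.21 with overlapping groups.

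In the Hoxc cluster, Hoxc9 and Hoxc8, which pattern thoracic segments and their motor neurons, fell most. Hoxc9 stood at 37.8, 17.9 and 16 CPM in NCD, 27.9, 26.8 and 24.5 in HFD-STZ and 4.32, 5.35 and 7.12 in DHZ. No DHZ library reached the lowest of the others, and the log2 fold change was -2.24 (SE 0.33 and adjusted p = 0.0031), within its error of those of Hoxb4 and Hoxd4. Hoxc8 stood at 42.5, 24.7 and 22.2 CPM in NCD, 36, 37.1 and 27.2 in HFD-STZ and 8.66, 8.15 and 11.3 in DHZ, with the same separation and a log2 fold change of -1.83 (SE 0.28 and adjusted p = 0.0031). Hoxc6 stood at 17.8, 15 and 14.6 CPM in NCD, 21.3, 17 and 14.1 in HFD-STZ and 7.90, 7.72 and 10.1 in DHZ. It also separated from both other groups, with a log2 fold change of -1.03 (SE 0.21 and adjusted p = 0.0087). Hoxc4, the 3′ end of its cluster, stood at 3.90, 3.07 and 4.67 CPM in NCD, 4.66, 5.39 and 3.25 in HFD-STZ and 2.53, 1.51 and 2.62 in DHZ, a low gene whose DHZ libraries were all below the others, with a log2 fold change of -0.99 (SE 0.31 and adjusted p = 0.038). The call of Hoxc4 was kept in 3 of 9 fits that left out a library. Hoxc10 at -0.91 (SE 0.31 and adjusted p = 0.055) came close to the threshold, and Hoxc5 at 0.04 had overlapping groups.

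In the Hoxa cluster, Hoxa3, Hoxa5 and Hoxa7 fell. Hoxa7 stood at 74.6, 38.3 and 39.1 CPM in NCD, 52.9, 46.4 and 69.4 in HFD-STZ and 17.1, 20.7 and 23.2 in DHZ. Its DHZ libraries were the lowest of the 9, and the log2 fold change was -1.47 (SE 0.29 and adjusted p = 0.0074). Hoxa5 stood at 30.7, 32.6 and 21 CPM in NCD, 40.1, 32.9 and 26.1 in HFD-STZ and 9.96, 13.8 and 12.3 in DHZ. It separated likewise, with a log2 fold change of -1.46 (SE 0.24 and adjusted p = 0.0046). Hoxa3, needed for the thymus and parathyroid, stood at 4.92, 5.11 and 5.03 CPM in NCD, 7.75, 9.57 and 5.37 in HFD-STZ and 4.43, 3.62 and 5.29 in DHZ, with DHZ spread around the NCD values. Hoxa3 was called at -0.75 (SE 0.25 and adjusted p = 0.049) but kept the call in 1 of 9 fits that left out a library. Antisense genes overlap 25.4% of the exon length of Hoxa3 and 20.4% of that of Hoxa7, with the uncertainty about strand given for Hoxb3. Hoxa9, a gene of blood progenitors and leukaemia, stood at 18.4, 20.5 and 15.9 CPM in NCD, 18.1, 22.2 and 20.6 in HFD-STZ and 21.2, 18.5 and 17.6 in DHZ, with all groups in the same range. Its log2 fold change was -0.09 (SE 0.19 and adjusted p = 0.77). Hoxa2 at -1.0 (adjusted p = 0.091), Hoxa6 at -0.20, Hoxa4 at 0.15, Hoxa10, a gene of the uterus, at 0.17 and Hoxa11 at 0.56 did not pass.

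In the Hoxd cluster, Hoxd3 and Hoxd4 fell and the genes 5′ of them were not called. Hoxd4 stood at 18.6, 17.8 and 13.1 CPM in NCD, 26.3, 23.2 and 17.8 in HFD-STZ and 3.79, 6.04 and 4.74 in DHZ. The DHZ libraries were well below all others, and the log2 fold change was -2.20 (SE 0.25 and adjusted p = 0.0031). Hoxd3 stood at 4.22, 3.24 and 3.35 CPM in NCD, 4.71, 3.91 and 4.05 in HFD-STZ and 2.58, 2.31 and 2.59 in DHZ, a smaller step in the same direction with a log2 fold change of -0.77 (SE 0.23 and adjusted p = 0.036). The call of Hoxd3 was kept in 2 of 9 fits that left out a library. In the annotation, 62.3% of the exon length of Hoxd3 and 52.3% of that of Hoxd4 is shared with each other or with another transcript on the same strand, so the 2 genes are uncertain where the counting could split their reads. Hoxd8, the highest of the cluster, stood at 17.3, 29.6 and 22.7 CPM in NCD, 21.4, 11.1 and 21.7 in HFD-STZ and 30.4, 32.1 and 18.5 in DHZ, with wide and overlapping groups. Hoxd9 stood at 5.34, 7.80 and 9.58 CPM in NCD, 6.07, 3.64 and 8.54 in HFD-STZ and 10.5, 10.9 and 6.83 in DHZ, with HFD-STZ replicate 2 lowest. Hoxd11 had a log2 fold change of -0.18 at under 1 CPM in every library.

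Of the 14 genes, 8 were called in all 9 fits that left out a library in turn: Hoxa5, Hoxa7, Hoxb4, Hoxb7, Hoxc6, Hoxc8, Hoxc9 and Hoxd4. The count was 8 without DHZ replicate 2 and 9 without DHZ replicate 1, and Hoxa3, Hoxb2, Hoxb3, Hoxc4 and Hoxd3 were lost in both. Calls over all genes fell from 3796 to 1302 and 1149 in these fits. Of 10 collecting duct principal cell markers, 3 were called lower (Gata3, Fxyd4 and Aqp3) and 0 higher, beside 12% and 10% of all genes. Their summed levels were 110 to 165 CPM in HFD-STZ, 114 to 148 in NCD and 72.2 to 92.7 in DHZ. Malat1 was likewise lowest in DHZ, as given above. The part of these markers and of Malat1 in the Hox result was not tested. The 3 markers were named after their values were seen, and with library sizes alone 0 of their calls were kept and Aqp3 changed sign. Intercalated cell markers, of the other collecting duct cell type, had 0 of 10 called, with summed levels of 111 to 127 CPM in HFD-STZ and 105 to 123 in DHZ. Of podocyte markers 4 of 8 were higher and 1 lower, of stroma and mesangium markers 3 of 10 higher and 1 lower, and of leukocyte markers 1 of 6 tested each way. Scaling by library size alone kept 2 of the 5 podocyte, 1 of the 4 stroma and 1 of the 2 leukocyte calls. Of adipocyte markers 1 of 7 tested was called higher under both scalings, with a median log2 fold change of 2.74 and summed levels of 16 to 78.3 CPM in NCD, 10.7 to 23.6 in HFD-STZ and 26.2 to 89.3 in DHZ. Endothelium had 0 of 8 called and urothelium 0 of 4 tested.

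The ratio of the counts of 2 Hox genes in the same library does not depend on how libraries are scaled. The pairs were chosen after the values had been seen and are given without a test. In Hoxa, the ratio of Hoxa7 to Hoxa10 was 11, 4.62 and 3.70 in NCD, 5.11, 3.25 and 7.12 in HFD-STZ and 1.22, 1.58 and 2.05 in DHZ, so that a gene that fell was closer to a more 5′ gene of its cluster. Hoxa5 to Hoxa9 was 1.67, 1.59 and 1.32 in NCD, 2.22, 1.48 and 1.26 in HFD-STZ and 0.470, 0.745 and 0.700 in DHZ, crossing from above 1 to below 1. In Hoxb, Hoxb4 to Hoxb9 was 9.26, 4.61 and 2.63 in NCD, 3.79, 7.89 and 5.84 in HFD-STZ and 1.12, 1.06 and 2.01 in DHZ. In Hoxc, Hoxc9 to its direct neighbour Hoxc10 was 6.31, 5.97 and 4.09 in NCD, 4.73, 2.93 and 3.12 in HFD-STZ and 1.40, 1.52 and 1.28 in DHZ. In Hoxd, Hoxd4 to Hoxd9 was 3.49, 2.28 and 1.37 in NCD, 4.34, 6.37 and 2.08 in HFD-STZ and 0.362, 0.554 and 0.694 in DHZ, and the DHZ libraries turned the order of the 2 genes around. Within paralogue group 9, Hoxc9 to Hoxd9 was 7.07, 2.29 and 1.67 in NCD, 4.61, 7.37 and 2.87 in HFD-STZ and 0.413, 0.491 and 1.04 in DHZ. Hoxd4 to Hoxd3 was 4.42, 5.49 and 3.92 in NCD, 5.59, 5.93 and 4.40 in HFD-STZ and 1.47, 2.61 and 1.83 in DHZ, so that the 2 genes differed in how far they moved. In each of these 7 pairs, every DHZ library lay below all 6 others. Another pair computed, Hoxb3 to its antisense gene Hoxb3os, went the other way at 0.189, 0.378 and 0.313 in NCD, 0.391, 0.471 and 0.345 in HFD-STZ and 0.840, 0.432 and 0.658 in DHZ, where DHZ lay above NCD and overlapped HFD-STZ.

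**Figure D4:**
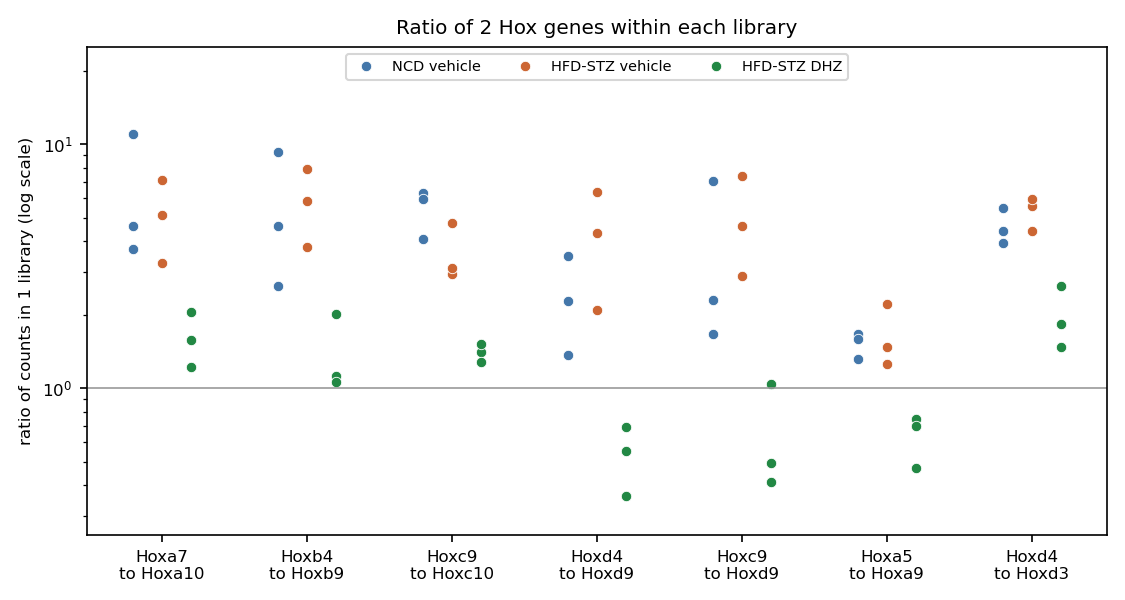
Ratio of the counts of 2 Hox genes within each library, on a log scale, for 7 of the 8 pairs computed, chosen after the values had been seen. Each point is a library, coloured by group, and the line marks a ratio of 1. The DHZ points lie below the other 6 in every pair drawn, and for Hoxd4 to Hoxd9 and Hoxa5 to Hoxa9 they lie below 1 while all others lie above it.

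Against NCD, 7 of the 29 Hox genes were lower in DHZ and 0 were higher. They were Hoxa5 at -1.22, Hoxa7 at -1.32, Hoxb4 at -1.74, Hoxc6 at -0.89, Hoxc8 at -1.67, Hoxc9 at -2.09 and Hoxd4 at -1.76 (log2 fold changes, adjusted p from 0.0083 to 0.022). Library sizes alone as the scaling called 0 of them and left their signs as they were. That scaling called 36 of all genes, beside 2352 on the TMM scale. These 2352 are 13.7% of all genes, with 7.38% lower. Of the protein-coding genes 5.29% were called lower on the TMM scale. The median log2 fold change of the 29 was -0.24 beside 0.006 over all genes. In 11 genes every DHZ library lay below every NCD library, beside 21.7% of all genes, and in 1, Hoxa10, every one lay above, beside 22.4%. Hoxb7 at -0.83 (SE 0.26 and adjusted p = 0.052), Hoxb5 at -0.63 (SE 0.23 and adjusted p = 0.078) and Hoxc4 at -0.82 (SE 0.30 and adjusted p = 0.084) came close. By contrast Hoxb2 at -0.04, Hoxa3 at -0.18 and Hoxb3 at -0.24 were near the NCD level. This comparison shares the DHZ libraries with the one above, so the 2 are not independent.

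Leaving out 1 library changed this count more. It was 2 without DHZ replicate 1, 4 without DHZ replicate 2 and 4 without NCD replicate 1. Calls over all genes fell from 2352 to 112, 245 and 267 in the same fits. Hoxc9 and Hoxd4 were called in all 9 fits that left out a library. NCD replicate 1 had the highest Hoxa7, Hoxb4, Hoxb7, Hoxc8 and Hoxc9 of its group. It was also the only NCD library in which Y-linked genes were expressed.

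Of 22 non-coding genes of the clusters listed, 17 were in the table and 7 had enough counts for a test. In DHZ against HFD-STZ, 2 of the 7 fell and 0 rose, beside 12% and 10% of all genes. The median log2 fold change of the 7 was 0.06. Hoxb3os, antisense to Hoxb3 and Hoxb2, stood at 64.2, 26.1 and 31.9 CPM in NCD, 33.4, 53 and 39.4 in HFD-STZ and 13.2, 15.4 and 14.3 in DHZ. Its log2 fold change was -1.55 (SE 0.32 and adjusted p = 0.0083), with NCD replicate 1 highest and no overlap between DHZ and the rest. Hotairm1, a transcript of the Hoxa cluster induced in myeloid cells, stood at 2.56, 2.53 and 3.14 CPM in NCD, 3.30, 4.04 and 3.05 in HFD-STZ and 1.44, 1.96 and 1.77 in DHZ, and its log2 fold change was -0.98 (SE 0.27 and adjusted p = 0.022). Neither call was kept with library sizes alone, and both signs were.

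Proteins that act with the Hox factors or on the clusters were counted in the same comparison, in which 12% of all genes were called lower and 10% higher. Of 8 TALE cofactors tested, 1 fell, Meis2, at -0.90 (SE 0.23 and adjusted p = 0.017), with 31.9, 32.5 and 26 CPM in NCD, 31.5, 36.8 and 21.1 in HFD-STZ and 16.1, 15.9 and 15.8 in DHZ. Of 19 tested Trithorax and activating genes, 5 fell and 0 rose. Psip1, which tethers Kmt2a to chromatin, had a log2 fold change of -1.66 (SE 0.33 and adjusted p = 0.0074). Kdm6b, which removes the Polycomb methyl mark, was at -1.30 (SE 0.26 and adjusted p = 0.0075). The methyltransferase genes Kmt2c and Kmt2a were at -0.96 and -0.85. Of 22 tested Polycomb genes, 4 rose and 3 fell. The ubiquitin ligase gene Rnf2 rose with a log2 fold change of 1.05 (SE 0.19 and adjusted p = 0.0059), the histone-binding Rbbp7 of 1.01 and Suz12, a core subunit of the methylating complex, of 0.73, while Pcgf2 was lower at -0.90. With library sizes alone 0 of the 13 calls in these 3 lists were kept, and Mtf2, one of the Polycomb genes called lower, changed sign.

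Of 10 tested genes of retinoic acid supply and of Cdx factors, 2 rose and 1 fell in this comparison, where 10% of all genes were called higher and 12% lower. Aldh1a2, an enzyme that makes retinoic acid, stood at 0.801, 2.66 and 2.12 CPM in NCD, 1.19, 0.539 and 0.160 in HFD-STZ and 2.47, 2.85 and 5.61 in DHZ, low and spread out, with a log2 fold change of 2.54 (SE 0.64 and adjusted p = 0.017). Aldh1a1, a related enzyme, rose with a log2 fold change of 1.23 (SE 0.30 and adjusted p = 0.017). The receptor gene Rarg was lower at -1.09 (SE 0.29 and adjusted p = 0.021). Cdx1 and Cdx2, which drive Hox genes in the embryo, had 0 counts in every library. Of 15 tested kidney developmental partners and targets, 5 fell and 0 rose, among them Tfap2b at -1.85, Gata3, which is also in the collecting duct list, at -1.35, Pax2 at -1.10 and Pax8 at -0.66. Pax2, which acts with the group 11 Hox proteins in kidney induction, stood at 10.7, 10.5 and 14.2 CPM in NCD, 23.5, 10.9 and 12.3 in HFD-STZ and 7.61, 6.06 and 8.28 in DHZ, so that HFD-STZ replicate 1 was high in its group. With library sizes alone 2 of the 3 retinoic acid calls and 0 of the 5 developmental calls were kept, and Pax8 changed sign. In HFD-STZ against NCD 0 genes of any of these lists were called.

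**Figure D5:**
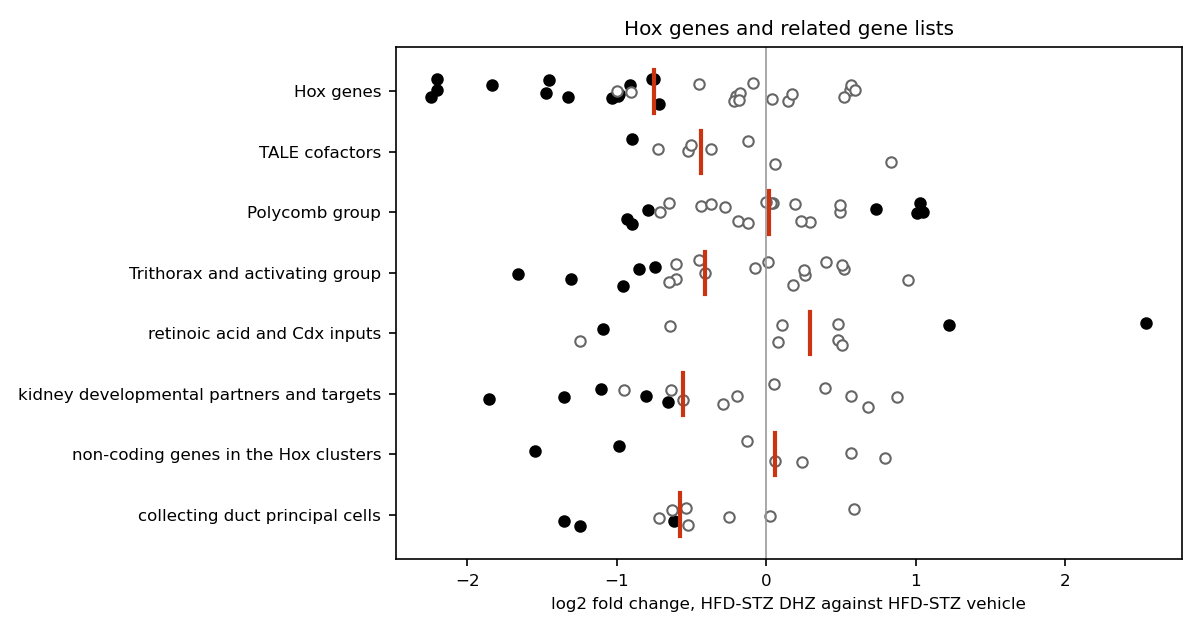
Log2 fold change in DHZ against HFD-STZ (TMM scale) of the tested Hox genes and of 7 other lists. Each point is a gene, filled points passed an adjusted p of 0.05, open points did not, and red bars are medians. Filled Hox points number 14, all below 0, and the Polycomb list has filled points on both sides. With library sizes alone no filled Hox point passes and Hoxa3, Hoxb2 and Hoxb3 lie slightly above 0.

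The transcripts of the 14 genes that fell in DHZ against HFD-STZ were set beside those of the 15 not called. The median transcript length was 2065 bases for the 14 and 2136 for the 15, and the median GC content was 53.7% and 53.4%. The 3′ UTR was 919 and 818 bases long at the median. Per kb of exon the 14 had the higher levels, with a median of 5.37 CPM per kb over the 9 libraries (range 0.821 to 25.0) against 2.79 (0.127 to 8.30). The sequence ATTTA, a core of AU-rich elements, occurred in the 3′ UTR of 13 of the 14 (92.9%) and of 9 of the 15 (60.0%), beside 69.0% of all protein-coding genes tested. These are descriptions of the sets and were not tested.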

How the data were processed

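RNA was captured from whole kidney with poly(A) beads and made into stranded libraries, per the labels' protocols. Reads were handled with FastQC, Trim Galore and STAR on mm39 (GRCm39), per the submitters' processing notes. For the counting program, its strand setting and its annotation the sources used here give nothing. The deposited values are whole-number read counts per gene, with no normalization. Symbols, exon lengths and 3′ UTRs came from the GENCODE annotation of GRCm38, another build, so no gene coordinates are given from it. All 9 libraries were fitted by group with edgeR 4.0.16 in R 4.3.3 (filterByExpr, TMM scaling, robust quasi-likelihood F-test). P-values were adjusted by Benjamini-Hochberg over 17179 genes, with a call at an adjusted p below 0.05. The common dispersion was 0.0893, with 6 residual degrees of freedom. Alternatives were DESeq2 1.42.0, other scalings, no filter, a replicate block, a Y-linked term, fits of the compared groups alone and leaving out each library. Simulated data had the real depths and genes changed by 2 or 3 on the log2 scale (DHZ against HFD-STZ, 16747 genes). In each set 40 to 47 of 47 to 50 changed genes were called, and of 16552 unchanged genes 13 were. Smaller changes, such as those of most called Hox genes, and differences in composition between libraries were not simulated. Members are named, except 1 that is not reported here, with values in every library for those called in any comparison and the 3 highest per kb in each cluster, and up to 4 genes with the lowest p from each other list. The members and lists were chosen with earlier results of these data known.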

Additional observations from a re-analysis of the deposited data

How the results depend on the processing

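The scaling of the libraries decided most. With library sizes alone, 0 Hox genes were called in DHZ against HFD-STZ and 0 against NCD, where 888 and 36 of all genes were. The Hox medians were 0.033 for DHZ against HFD-STZ and -0.429 for HFD-STZ against NCD. Hoxa3 (0.056), Hoxb2 (0.033) and Hoxb3 (0.032) reversed in DHZ against HFD-STZ. Per M of total counts, the log2 ratios of the cluster sums were -0.446 (Hoxa), -0.178 (Hoxb), -0.399 (Hoxc) and -0.732 (Hoxd) for HFD-STZ against NCD, and -0.257, -0.486, -0.747 and 0.646 for DHZ against HFD-STZ. Per M counts of nuclear protein-coding genes, those for HFD-STZ against NCD were 0.075, 0.341, 0.105 and -0.155 in the same order. Those for DHZ against HFD-STZ were then -0.861, -1.082, -1.362 and 0.072. Without the filter, the medians were -0.357 against HFD-STZ and -0.424 against NCD. TMM on nuclear protein-coding genes called 15 and 8, DESeq2 15 and 8, a Y-linked term 13 and 8, the compared groups alone 10 and 9, and no filter 12 and 8. Calls over all genes in the same order were 3772 and 2387, 4626 and 3412, 3660 and 3617, 2860 and 3981, and 4633 and 3380. Leaving out each library in turn gave 8 to 14 and 2 to 8 calls, and medians of -0.758 to -0.556 against HFD-STZ, the last without HFD-STZ replicate 2. Calls over all genes in those fits ran from 1149 to 4086 and from 112 to 3706. With the replicate block the counts were 9 and 6, and 0 for HFD-STZ against NCD, beside 2159, 772 and 2 of all genes. Same-numbered libraries correlated at -0.409 to 0.224 and the others at -0.353 to 0.499. These values showed no pairing by number but cannot exclude one. With the block Hoxa3, Hoxb2, Hoxb3, Hoxc4 and Hoxd3 lost their calls against HFD-STZ. With median coding transcript lengths in place of exons, tried after seeing the data, the log2 ratios of the cluster sums kept their direction. Hoxa then came above Hoxb in 8 of 9 libraries. The cause of these changes was not tested. Depth limits Hoxa13, Hoxb1, Hoxc11 and Hoxd1 most, and the 5 genes at 0.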

Other observations

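The genes that flank the Hox clusters moved in both directions. Of 24 tested neighbours, 3 on each side of each cluster, 6 rose and 3 fell in DHZ against HFD-STZ, with a median log2 fold change of 0.29 beside 0.04 over all genes tested, of which 10% were called higher and 12% lower. Those that rose were Skap2 (0.84), Ube2z (1.34), Hnrnpa1 (0.75), Atf2 (0.92), Mtx2 (1.52) and Nfe2l2 (1.02), and those that fell were Cbx1 (-0.62), Cbx5 (-0.85) and Lnpk (-1.55). Cbx1 and Cbx5 encode heterochromatin proteins. Against NCD 5 rose and 0 fell, where 13.7% of all genes were called in either direction and 7.38% lower. In HFD-STZ against NCD 0 were called. The difference between the Hox genes and their neighbours was not tested, and these genes were named after their values were seen.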
